A study of Mus musculus with 4 samples.

Results

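The enzymes that dismantle amino acids in the liver, together with the urea cycle that disposes of their nitrogen, were compared between livers of Ilrun knockout and wild-type mice. The set was 48 genes listed by the amino acid their enzymes act on, with no threshold on their values, out of 31709 genes that the array measures. It was chosen with earlier results of these data known, so its shares beside those of all genes are descriptive only. A gene was tested if 3 or more of the 4 knockout samples, or of the 4 wild-type samples, read its probe well above background. This held for 47 of the 48 members and for 19675 genes in all. The exception was Tdh, the threonine dehydrogenase, whose brighter probe passed in 1 of 4 knockout and 2 of 4 wild-type samples.

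Hepatocytes break most amino acids down by first passing the amino group to 2-oxoglutarate or releasing it as ammonia. The carbon skeletons then feed glucose, ketone or energy metabolism. Ammonia and aspartate nitrogen enter the urea cycle, which turns them into urea through carbamoyl phosphate, citrulline, argininosuccinate and arginine. Most of these enzymes are abundant in liver, and many respond to fasting hormones.

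The study hybridised 4 liver RNA samples of knockout and 4 of wild-type mice to 4 Agilent 2-colour arrays, each holding 1 knockout and 1 wild-type sample. The knockout samples carry the genotype label IlrunKO and the controls WT; all were male C57BL/6 mice kept on chow, and their livers were collected after 4 h without food. Knockout RNA carried Cy5 (red) on arrays 1 and 2 but Cy3 (green) on arrays 3 and 4. Each labelling used 500 ng of total RNA. Ilrun is a regulator of inflammatory and lipid pathways, named for its role in inflammation and lipid regulation. The labels and file headers do not give the age of the mice, the deleted segment of Ilrun, the tissues in which it was deleted or whether controls were littermates. The labels call the samples biological replicates without saying that each RNA came from a single animal. The p-values rest on the spread of these 4 pairs that remains once the dye effect is fitted, combined with a variance estimate from all genes. The SDs given below are over the 4 arrays and include any dye difference, so they can be wide beside a narrow confidence interval.

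Values are log2 ratios of knockout over wild type, with the dye effect fitted as a term. Adjusted p-values come from limma with Benjamini-Hochberg adjustment over all 19675 genes, and a gene was called at an adjusted p under 0.05. In bulk liver, fewer cells of a type and less RNA per cell cannot be told apart. The brighter of the Ilrun probes read -4.12, -4.11, -4.04 and -4.56 on arrays 1 to 4. Another Ilrun probe read -2.03, -2.18, -1.78 and -2.59, and was well above background in 1 of 4 knockout and 4 of 4 wild-type samples. By both probes, each library labelled as knockout held less Ilrun RNA than its partner. Between 60.04% and 67.33% of probes were well above background in a channel, and no spot was saturated on any array. Half-widths of the unadjusted 95% confidence interval had a median of 0.15 log2 units over all genes tested, and reached 0.78 in the member Got1. The 4 arrays could not resolve differences much smaller than a gene's half-width. The adjusted threshold for a call was stricter, so a gene that did not pass may still differ.

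Among the 47 tested members 2 rose in the knockout and 0 fell at an adjusted p under 0.05. The first was Hal, histidine ammonia-lyase, which opens histidine breakdown. The other was Gpt, alanine aminotransferase 1, which converts alanine and 2-oxoglutarate to pyruvate and glutamate. This is 4.26% of the members, against 1.37% of all genes called in either direction (0.717% higher and 0.656% lower). At an unadjusted p under 0.05 there were 11 members (23.4%), against 20.5% of all genes, so on this looser measure the members' share was close to the background. Of those 11, 8 had higher values in the knockout: Hal, Amdhd1, Gpt, Sds, Gldc, Ivd, Mccc1 and Mccc2. The other 3, Tat, Prodh2 and Csad, had lower values. Over all genes, 4034 had such a p-value, 2093 of them higher (10.6% of all genes tested) and 1941 lower (9.87%). The median ratio over the members was 0.05, against -0.0014 over all genes tested, with 27 members above 0 and 20 below. The array medians of the members ran from 0.01 on array 4 to 0.07 on array 3.

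**Figure D1:**
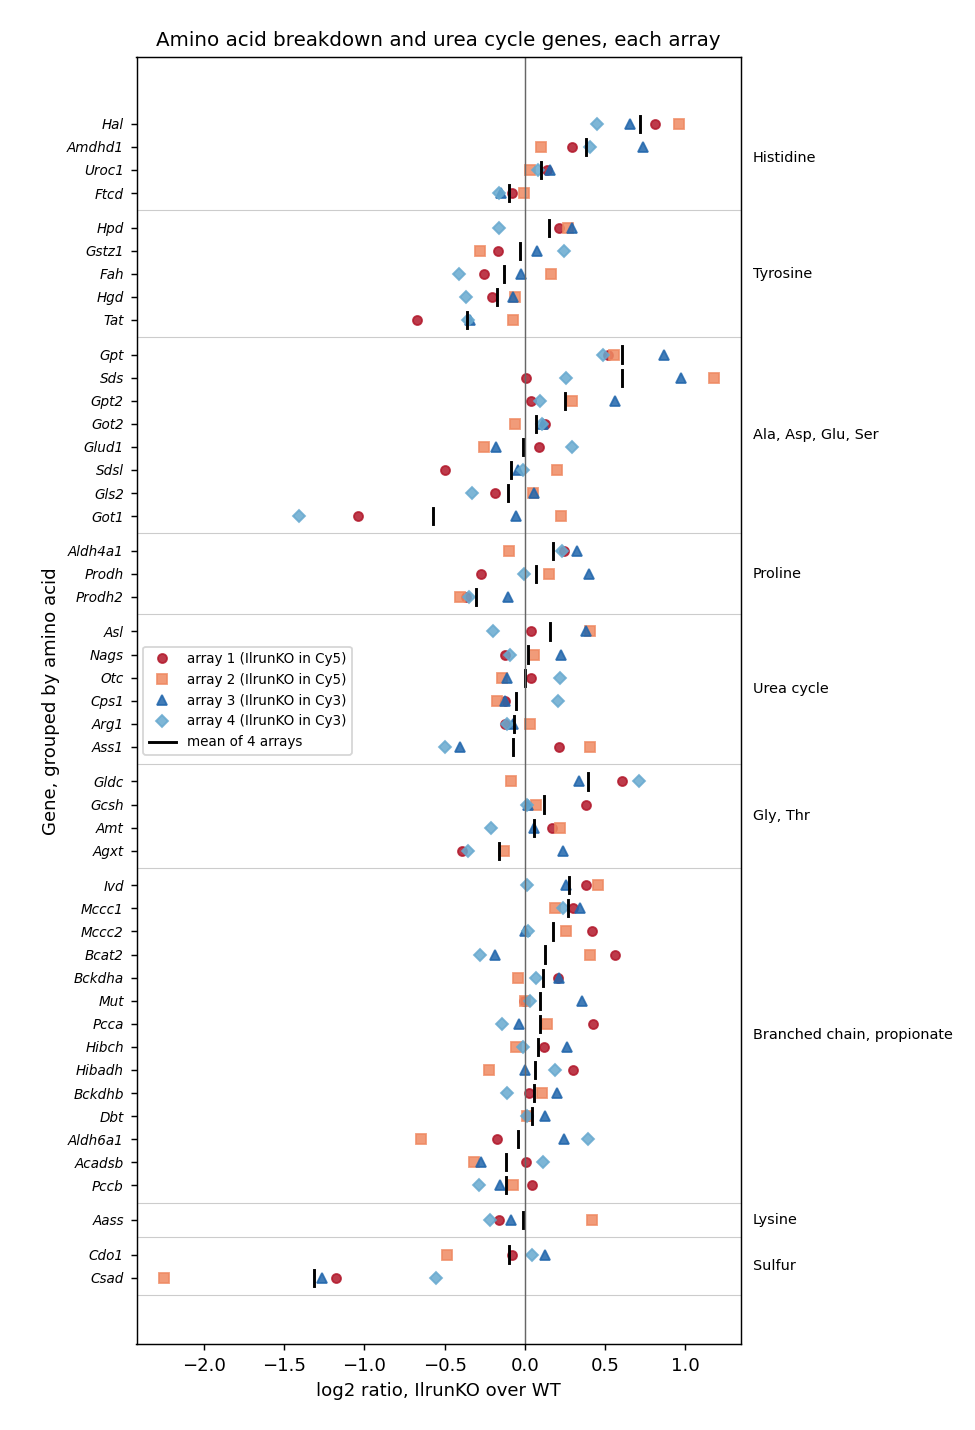
Log2 ratio of knockout over wild type (x axis) for each of the 47 tested genes, grouped by amino acid (y axis); the 4 symbols are the 4 arrays and the black bar is their mean. Hal and Gpt lie above 0 on all 4 arrays, Csad lies below 0 on all 4 arrays, and most other genes spread on both sides of 0 or close to it.

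Large ratios were few. The absolute ratio exceeded 0.5 in 5 of the 47 members (10.6%), against 2.58% of all genes: Hal, Gpt, Got1, Sds and Csad. The members were also bright genes, with a median log2 intensity of 13.8 against 8.27 over all genes. Their standard deviation over the 4 arrays had a median of 0.21 (range 0.05 to 0.78), against 0.15 over all genes, so the pairs differed more from each other in these genes than in the typical gene. The 4 arrays had the same sign in 15 members (31.9%), against 23.2% of all genes. Among the 1112 genes at least as bright as the median member, that share was 17.6%, and 15 were called higher and 12 lower.

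The histidine pathway held the member with the smallest p-value. Histidine is taken apart in order by Hal, Uroc1 (urocanate hydratase), Amdhd1 (imidazolonepropionase) and Ftcd (which passes the formimino group to tetrahydrofolate). Hal and Amdhd1 had the larger ratios and Uroc1 and Ftcd the smaller. The promoters of Hal and Amdhd1 are shown because these genes also lie next to each other in the genome. In the RefSeq annotation no gene lies between them, and they stand on opposite strands with 6577 bases between their ends. The 250 bases before each annotated start are given 5′ to 3′ on the gene's strand, from RefSeq on GRCm38.p6. The capitals mark a CCAAT box and, read on the opposite strand, a TATAAA box.
Hal, chr10:93488518-93488767, plus strand: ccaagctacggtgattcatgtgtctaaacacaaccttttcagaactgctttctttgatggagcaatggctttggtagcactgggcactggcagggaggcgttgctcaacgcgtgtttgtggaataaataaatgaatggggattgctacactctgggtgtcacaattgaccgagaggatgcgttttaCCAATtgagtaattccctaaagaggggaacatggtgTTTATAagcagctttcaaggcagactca
Amdhd1, chr10:93540034-93540283, minus strand: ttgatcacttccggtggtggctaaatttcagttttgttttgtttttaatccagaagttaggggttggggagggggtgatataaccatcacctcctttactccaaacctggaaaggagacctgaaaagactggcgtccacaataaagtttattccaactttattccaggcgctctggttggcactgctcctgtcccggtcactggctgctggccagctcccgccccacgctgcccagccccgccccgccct

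In the Hal promoter the TATAAA letters begin 28 bases and the CCAAT letters 64 bases before the start. The Amdhd1 window held neither. Among all 32851 promoters of that length in the table, TATAAA occurred on either strand in 12.4% and CCAAT in 33.8%. The other motifs searched on both strands were TGACGTCA (cAMP response element, 1.55% of promoters), TTGCGCAA (C/EBP site, 0.164%), CAAAGTCCA (HNF4 site, 0.384%), the palindromic HNF1 site (0.0091%) and the palindromic glucocorticoid response element (0.0091%). None of these 5 was in either window. A promoter entry was found for 37 of the 48 members.

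Hal was read by a probe at chr10:92979135-92979194 on mm9. Its normalised log2 intensity was 14.71, 14.75, 14.60 and 14.35 in knockout samples 1 to 4. In wild-type samples 1 to 4 it was 13.90, 13.78, 13.95 and 13.90. Every knockout value lay above every wild-type value, and the wild-type livers were close to each other. The ratios on arrays 1 to 4 were 0.81, 0.96, 0.66 and 0.45, a mean of 0.72 ± 0.22 (SD, n = 4). This is a 1.65-fold higher level (95% confidence interval 1.48 to 1.84, limma adjusted p = 0.0347). The call was lost without array 3 (0.67, limma adjusted p = 0.158) or without array 4 (0.77, limma adjusted p = 0.125). It was also lost with Agilent's own processed signals (0.70, limma adjusted p = 0.0613) and when arrays were only centred on their median (0.57, limma adjusted p = 0.249).

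Amdhd1, read at chr10:92986454-92986513 on mm9, did not pass the adjusted threshold. Its log2 intensity was 12.40, 12.15, 12.45 and 12.31 in the knockout samples and 12.11, 12.05, 11.72 and 11.90 in the wild-type samples. The genotypes did not overlap, although knockout sample 2 and wild-type sample 1 were nearly level. Such separation was seen in 6 members (12.8%: Hal, Amdhd1, Gpt, Sds, Prodh2 and Ivd), against 8.97% of all genes. The ratio was 0.38 ± 0.27 (SD, n = 4; limma adjusted p = 0.0897). The ratio of Uroc1 was 0.10 (limma adjusted p = 0.319), with 0.14, 0.03, 0.16 and 0.08 on the arrays. Ftcd, at -0.10, was the one histidine gene below 0.

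Among the enzymes that handle alanine, aspartate, glutamate and serine, Gpt stood apart from its mitochondrial counterpart Gpt2 in passing the test; the difference between these genes was not tested. The Gpt probe lies at chr15:76529767-76529897 on mm9. Its log2 intensity was 14.90, 15.02, 15.32 and 14.96 in the knockout samples and 14.38, 14.46, 14.45 and 14.47 in the wild-type samples. The wild-type livers were close to one another, and all 4 knockout livers lay above them. The array ratios were 0.52, 0.56, 0.87 and 0.49, a mean of 0.61 ± 0.18 (SD, n = 4). This is 1.52-fold higher (95% confidence interval 1.33 to 1.75, limma adjusted p = 0.0461). With the value so near the threshold, leaving out any 1 array ended the call, at ratios of 0.51 to 0.70 and limma adjusted p-values of 0.0630 to 0.159. Agilent's processed signals (0.62, limma adjusted p = 0.0803) and median centring (0.44, limma adjusted p = 0.258) did so too.

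Sds, the serine dehydratase that turns serine into pyruvate and ammonia, had nearly the same mean as Gpt but a much wider spread. Its log2 intensity was 14.006, 14.52, 14.30 and 14.19 in the knockout samples and 13.996, 13.34, 13.32 and 13.94 in the wild-type samples. The genotypes did not overlap, by a narrow margin. On array 1 the pair was level, and on arrays 2 and 3 the knockout was far above its partner. The ratio was 0.60 ± 0.56 (SD, n = 4; limma adjusted p = 0.235), so it did not pass.

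Got1, the cytosolic aspartate aminotransferase, had the largest standard deviation of any member. Its log2 intensity was 14.31, 14.89, 14.48 and 13.72 in the knockout samples and 15.35, 14.66, 14.54 and 15.12 in the wild-type samples. The knockout was well below its partner on arrays 1 and 4 and close to or above it on arrays 2 and 3. The ratio was -0.57 ± 0.78 (SD, n = 4; limma adjusted p = 0.369, 95% confidence interval -1.35 to 0.21). Got2, the mitochondrial form, was at 0.07. Gpt2 was at 0.25, Sdsl at -0.09, the liver glutaminase Gls2 at -0.10 and glutamate dehydrogenase Glud1 at -0.01, and none of these 5 passed. Over the 8 genes of this group the median was 0.03, with 4 above 0 and 4 below; with median centring it was -0.13.

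**Figure D2:**
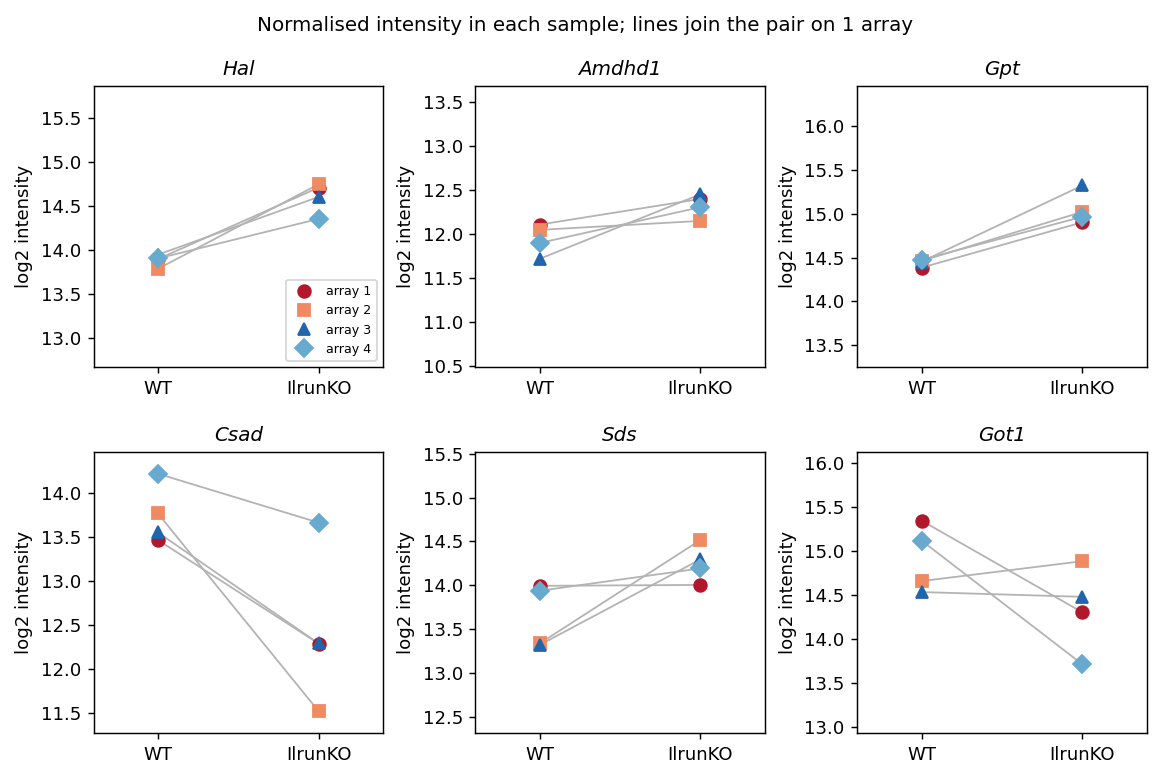
Normalised log2 intensity (y axis) of 6 genes in wild-type and knockout livers (x axis), with a line joining the 2 samples on each array; the axes show different ranges of the log2 scale and do not start at 0. The knockout points of Hal, Amdhd1, Gpt and Sds lie above all wild-type points of the same gene, whereas those of Csad and Got1 overlap with them.

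The largest ratio of any member belonged to Csad, cysteine sulfinic acid decarboxylase, which makes the taurine precursor hypotaurine. Csad has 2 annotated starts in RefSeq, and both promoters are shown because the probe does not say which start was used. They are 250 bases on the minus strand of GRCm38.p6, with a CCAAT box in capitals.
Csad start 1, chr15:102205053-102205302: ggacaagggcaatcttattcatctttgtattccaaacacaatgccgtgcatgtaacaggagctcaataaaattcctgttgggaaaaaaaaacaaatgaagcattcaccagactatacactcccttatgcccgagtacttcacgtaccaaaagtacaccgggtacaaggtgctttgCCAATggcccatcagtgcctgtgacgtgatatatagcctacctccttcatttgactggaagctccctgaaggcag
Csad start 2, chr15:102189044-102189293: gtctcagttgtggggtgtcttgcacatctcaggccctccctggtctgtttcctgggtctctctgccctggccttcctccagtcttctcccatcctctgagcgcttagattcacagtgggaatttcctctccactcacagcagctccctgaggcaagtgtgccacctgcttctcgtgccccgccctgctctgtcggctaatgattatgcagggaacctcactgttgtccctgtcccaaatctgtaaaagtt

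The CCAAT letters begin 75 bases before the first start, and none of the 7 motifs was in the window of the other. The Csad probe lies at chr15:102007569-102007628 on mm9. Its log2 intensity was 12.29, 11.52, 12.29 and 13.67 in the knockout samples and 13.47, 13.77, 13.56 and 14.22 in the wild-type samples. Each knockout liver was below its partner, but knockout sample 4 was above wild-type samples 1 and 3, so the genotypes overlapped. The ratios were -1.18, -2.25, -1.26 and -0.56, a mean of -1.31 ± 0.70 (SD, n = 4). The level was 2.48-fold lower, and the gene missed the threshold (limma adjusted p = 0.0698, 95% confidence interval of the log2 ratio -1.86 to -0.76). Csad passed in 4 of 16 alternative analyses, among them the one without array 1 (-1.58, limma adjusted p = 0.0307). Cdo1, the cysteine dioxygenase that makes Csad's substrate, was at -0.08, -0.48, 0.12 and 0.05 on the arrays, a mean of -0.10 (limma adjusted p = 0.556).

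No urea cycle gene passed the test, and none of the 6 had an unadjusted p under 0.05. The mitochondrial steps come first: Nags makes the activator of Cps1, Cps1 fixes ammonia as carbamoyl phosphate, and Otc joins it to ornithine. Their ratios were 0.02 ± 0.16, -0.05 ± 0.17 and 0.0015 ± 0.17 (SD, n = 4 each). The limma confidence intervals put the knockout level between 0.885 and 1.16 times wild type for Nags, 0.850 and 1.09 times for Cps1, and 0.874 and 1.15 times for Otc. On arrays 1 to 4 Nags read -0.12, 0.06, 0.23 and -0.09. Cps1 read -0.12, -0.17, -0.12 and 0.21, and Otc 0.04, -0.14, -0.11 and 0.22. Each had arrays on both sides of 0, and Cps1 and Otc were highest on array 4. A second Otc probe did not share this: it read 0.25, 0.09, -0.28 and -0.05, highest on array 1.

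The cytosolic steps gave the same kind of picture. Ass1 condenses citrulline with aspartate, Asl splits argininosuccinate, and Arg1 releases urea. Arg1 was the tightest of the 6, at -0.12, 0.03, -0.07 and -0.11, a mean of -0.07 ± 0.07 (SD, n = 4; 0.869 to 1.04 times wild type). Asl was the highest, at 0.04, 0.41, 0.38 and -0.20, a mean of 0.16 ± 0.29 (SD, n = 4; 0.899 to 1.38 times wild type). Ass1 read 0.21, 0.40, -0.40 and -0.49, a mean of -0.07 ± 0.45 (SD, n = 4; 0.861 to 1.05 times wild type). Its sign turned with the dye: the knockout read higher on both arrays where it carried Cy5 and lower on both where it carried Cy3. A second Ass1 probe read -0.07, 0.25, -0.34 and -0.50, so it was not higher on both Cy5 arrays. Its mean was -0.16 in a separate limma fit over probes (adjusted p = 0.29 over all probes). None of the 6 genes had the same sign on all 4 arrays, the median of the group was -0.03, and these intervals do not show that the levels were equal.

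Opposite mean signs in the 2 dye orientations were seen in 14 of the 47 members (29.8%), 4 of them in the urea cycle, against 49.2% of all genes. The share was 59.4% among the 1112 genes at least as bright as the median member. The widest gaps among those 14 members were in Ass1 (0.31 with the knockout in Cy5 and -0.45 with it in Cy3), Bcat2 (0.48 and -0.23) and Aldh6a1 (-0.41 and 0.32). These are values of the brightest probe of each gene. A second Aldh6a1 probe did not repeat the reversal, at 0.07, -0.59, -0.07 and 0.01 on arrays 1 to 4. The dye term itself passed in 0 of all genes tested, and the limma adjusted p of that term was 0.104 for Ass1, 0.103 for Bcat2 and 0.162 for Aldh6a1. Hal was at 0.89 and 0.55 and Gpt at 0.54 and 0.68 in the same order.

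**Figure D3:**
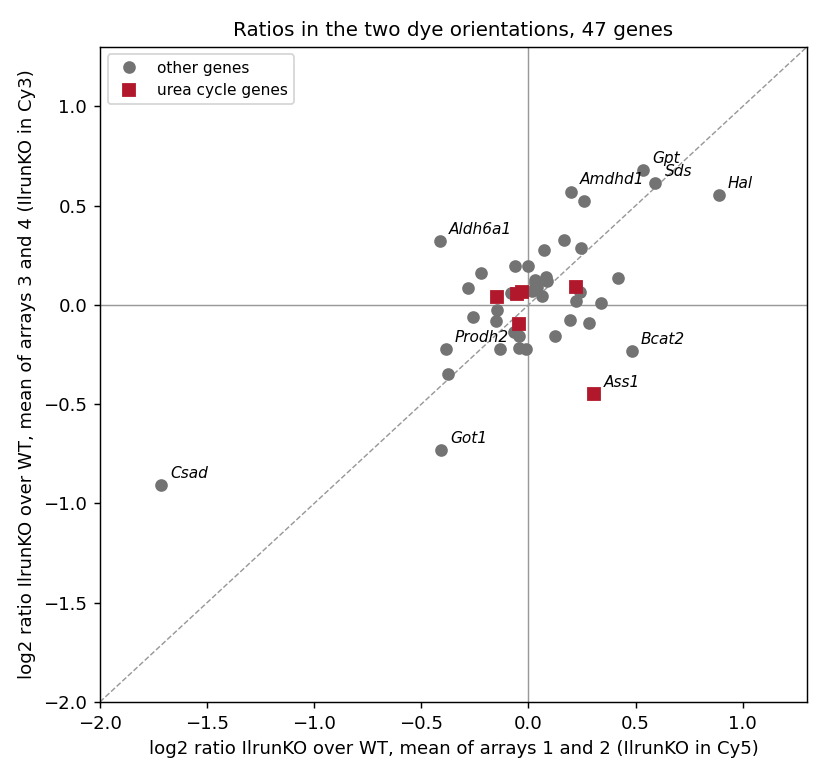
Mean log2 ratio of knockout over wild type on arrays 1 and 2, with the knockout in Cy5 (x axis), against arrays 3 and 4, with it in Cy3 (y axis), for the 47 genes; the dashed line marks equal values and red squares mark the urea cycle. Hal, Gpt, Sds and Amdhd1 lie in the upper right and Csad in the lower left, while Ass1, Bcat2 and Aldh6a1 lie in the quadrants of opposite sign.

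Tyrosine breakdown had 4 of its 5 genes below 0 and a median of -0.13, with none passing. Tat, the tyrosine aminotransferase that starts the pathway, read -0.67, -0.08, -0.34 and -0.35, a mean of -0.36 ± 0.24 (SD, n = 4; limma adjusted p = 0.165). All 4 arrays were below 0, with array 2 near it. Hgd, homogentisate dioxygenase, read -0.20, -0.06, -0.08 and -0.36, a mean of -0.18 (limma adjusted p = 0.245). Hpd, which makes homogentisate, was at 0.15, Gstz1, the maleylacetoacetate isomerase, at -0.03 and Fah, the last enzyme, at -0.13.

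Proline has a first step that Prodh carries out, while Prodh2 acts on hydroxyproline. Prodh2 read -0.37, -0.41, -0.10 and -0.35, a mean of -0.31 ± 0.14 (SD, n = 4; limma adjusted p = 0.0893). All 4 arrays were below 0 and the genotypes did not overlap, yet it did not pass. Aldh4a1, which completes both routes to glutamate derivatives, read 0.24, -0.10, 0.33 and 0.23, a mean of 0.18 (limma adjusted p = 0.268). Prodh itself was at 0.07.

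Of the glycine and threonine genes 4 were tested and none passed. Gldc, the decarboxylase of the glycine cleavage system, read 0.61, -0.09, 0.34 and 0.71, a mean of 0.39 ± 0.36 (SD, n = 4; limma adjusted p = 0.206). Array 2 alone was below 0. The other subunits measured here were lower, with Gcsh at 0.38, 0.07, 0.02 and 0.02 (mean 0.12, limma adjusted p = 0.387) and Amt at 0.06. Agxt, which detoxifies glyoxylate with alanine as amino donor, was at -0.16. Aass, the bifunctional enzyme that starts lysine breakdown, read -0.16, 0.42, -0.09 and -0.22, a mean of -0.01 ± 0.29 (SD, n = 4; limma adjusted p = 0.96).

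The branched-chain and propionate genes were the largest group, with 14 members, 11 of them above 0, a median of 0.09 and no call. With median centring the group's median was -0.04. The highest 3 belong to leucine breakdown: Ivd, the isovaleryl-CoA dehydrogenase, and Mccc1 and Mccc2, the subunits of methylcrotonyl-CoA carboxylase that act next. Mccc1 read 0.30, 0.19, 0.34 and 0.24, a mean of 0.27 ± 0.07 (SD, n = 4; limma adjusted p = 0.0854). The arrays differed little. In the limma fit over probes this probe had an adjusted p of 0.0827, and a second Mccc1 probe, at 0.28, one of 0.0704. Ivd read 0.38, 0.45, 0.25 and 0.01, a mean of 0.28 ± 0.19 (SD, n = 4; limma adjusted p = 0.105), with array 4 at almost no difference. Mccc2 was at 0.17 (limma adjusted p = 0.169).

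The steps upstream of these were closer to 0. The transaminase Bcat2 had a mean of 0.12, and the branched-chain ketoacid dehydrogenase subunits Bckdha, Bckdhb and Dbt were at 0.11, 0.05 and 0.04. In valine and isoleucine breakdown Hibch was at 0.08, Hibadh at 0.07, Acadsb at -0.12 and Aldh6a1 at -0.05. In the propionate route, which ends at succinyl-CoA, the carboxylase subunits Pcca and Pccb were at 0.10 and -0.12, and the mutase Mut was at 0.10. The lowest adjusted p in these 11 genes was that of Bcat2, at 0.279 (limma).

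A wider list of 61 genes around these pathways, of carriers, side enzymes, further breakdown enzymes and regulators, had 58 tested, 2 higher and 1 lower, again beside 1.37% of all genes called. Its median was -0.02, with 27 genes above 0 and 31 below. Dmgdh, the mitochondrial dimethylglycine dehydrogenase of choline breakdown, rose by 0.84 ± 0.21 (SD, n = 4; limma adjusted p = 0.0397), with 1.11, 0.63, 0.88 and 0.74 on the arrays. Aspa, which splits N-acetylaspartate, rose by 0.45 ± 0.12 (SD, n = 4; limma adjusted p = 0.0443). Both calls were lost without array 3 or array 4, and that of Aspa without array 1 or array 2, without the dye term (limma adjusted p = 0.0525) or with a normexp offset of 0 (0.0541) too. Both were also lost with Agilent's processed signals or median centring, as was that of Atf5, given next.

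The regulators included the 1 gene that fell. Atf5, a transcription factor of the mitochondrial stress response, read -0.72, -1.04, -0.93 and -0.71, a mean of -0.85 ± 0.16 (SD, n = 4; limma adjusted p = 0.0347). All 4 arrays were well below 0, and the call was lost without array 3 (-0.80, limma adjusted p = 0.158) or array 4 (-0.90, limma adjusted p = 0.127). Of the 14 genes in the regulator list, which also holds the enzymes Pck1 and Fbp1, 3 were above 0 and 11 below. Over all genes 50.6% were below 0. In 10 of the 14 the 2 dye orientations had opposite mean signs, against 49.2% of all genes. Just outside the threshold were Bckdk, the kinase that inhibits the branched-chain ketoacid dehydrogenase (0.40, limma adjusted p = 0.0504), and the neutral amino acid carrier Slc38a2 (-0.56, limma adjusted p = 0.0547). Suox, sulfite oxidase, was at 0.53 (limma adjusted p = 0.0656) and Mmab, of cobalamin metabolism, at 0.52 (limma adjusted p = 0.0768).

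Marker genes of liver cell types were read on the same arrays. All 10 general hepatocyte markers were tested. At an unadjusted p under 0.05, 6 were lower and 1 higher, against 9.87% and 10.6% of all genes. Of the 10, 9 were below 0, none was called and the median was -0.25. That median was 0.03 and 0.19 on arrays 1 and 2, with the knockout in Cy5, and -0.70 and -0.49 on arrays 3 and 4, with it in Cy3. In 7 of the 10 markers the 2 dye orientations had opposite mean signs, against 49.2% of all genes. On the summed scale the hepatocyte list ranged over 19.5 to 20.2 log2 units in knockout and 19.9 to 20.3 in wild-type livers. The 7 periportal markers, which share Hal, Sds and Ass1 with the members, had a median of 0.10, and the 8 pericentral markers 0.14. The summed periportal list ranged over 18.8 to 19.3 in both genotypes.

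All 8 macrophage markers were above 0 and all 8 stellate cell markers below 0, with medians of 0.41 and -0.35 and none called in either list. The summed macrophage list ranged over 15.0 to 15.6 log2 units in knockout and 14.6 to 15.3 in wild-type livers, and the stellate list over 14.59 to 15.12 and 15.15 to 15.24, without overlap. All marker lists were summed on the linear scale, so the brightest genes dominate. In the stellate list these are Dcn and Ecm1, at mean log2 intensities of 13.9 and 13.8. Taken singly, 8.97% of all genes had genotypes that did not overlap. At an unadjusted p under 0.05, 7 of the 8 stellate markers had lower values, against 9.87% of all genes. By the same measure 4 of the 8 macrophage markers had higher values, against 10.6% of all genes. No marker of these 2 lists was below background in every sample. The macrophage median was -0.25 on array 1 and 0.83, 0.46 and 0.58 on arrays 2 to 4.

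Of 6 adipocyte markers 3 were tested. Cfd rose by 3.82 ± 1.22 (SD, n = 4; limma adjusted p = 0.047), Retn was at 0.14 and Fabp4 at -0.11, and Adipoq, Plin1 and Lep were not well above background in any sample. The summed adipocyte list ranged over 11.3 to 12.5 log2 units in knockout and 10.3 to 10.6 in wild-type livers, without overlap. That sum includes Cfd and was not taken without it, so the gap adds nothing to the rise of Cfd. Nkg7, of the lymphocyte list, fell by 0.76 (limma adjusted p = 0.0303). The summed lymphocyte list, which includes Nkg7, did not exceed 10.7 in any knockout liver and was at least 10.8 in every wild-type liver. The part of cell composition in the members' ratios was not tested.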

How the data were processed

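Liver samples, 4 of IlrunKO and 4 of WT mice, were profiled on 4 Agilent 2-colour arrays of 60-base probes, all on 1 slide. Per the file headers, the authors extracted spot and local background intensity values with Feature Extraction 10.10.1.1, with probes annotated on mm9. Per the file headers, the processed intensity was background-subtracted and dye-normalised by that software, and the log10 ratio is that of processed Cy5 over Cy3. The deposited value table holds the authors' log2 ratios, which correlated with the scanner ratios over spots at 0.788, 0.753, -0.743 and -0.755 on arrays 1 to 4, so it runs as knockout over wild type on every array; its column medians were -0.039, -0.043, 0.038 and 0.035, and its centring stays unknown. The submitters' processing notes name limma.

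Here, 1377 control spots had weight 0 and outlier spots (269 to 434 an array) were left out. Normexp (offset 50) and loess were followed by limma 3.58.1 in R 4.3.3 with terms for genotype and dye, which left 2 residual degrees of freedom. Spots of a probe were averaged and the brightest probe stood for a gene. Of 39429 probes, 26055 were named through their accession, 4125 through a symbol and 9249 kept the name in the file; 41 members had 1 probe and 7 had several. Levels per sample were taken after Aquantile scaling. The fit was tested on simulated data.

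The members and lists were chosen with earlier results of these data known. Values on all arrays are given for called members, the 2 smallest p-values in each amino acid group and the urea cycle genes; related genes are named if called, then the next 4 by p. Got1 and other genes singled out for their spread or dye pattern were named after their values were seen. Alternatives were the dye term, background correction, normalisation, filter, probe choice, variance model, array weights, a separate-channel model, the deposited table, the threshold and leaving out each array.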

Additional observations from a re-analysis of the deposited data

Results flagged for a closer look

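In 5 of the 47 tested members, 1 array stood apart from the other 3 by Dixon's test at the 95% level. Chance alone gives such a flag in about 1 of 20 genes. For Got2 it was array 2, at -0.061 against 0.10 to 0.12 on the others. For Cps1 it was array 4, at 0.21 against -0.17 to -0.12. The ratio of Gcsh was 0.38 on array 1 and 0.02 to 0.07 elsewhere. Dbt read 0.13 on array 3 and 0.01 to 0.02 elsewhere. Mut read 0.36 on array 3 and -0.0029 to 0.03 elsewhere. None of these 5 genes was called.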

How the results depend on the processing

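Members called higher numbered 2 (Hal and Gpt). The count was 0 with Agilent's processed signals, 0 with median centring, 7 in the separate-channel model and 4 at an adjusted p under 0.10. It was 0 to 1 when 1 array was left out (Hal without array 1 or 2, none without array 3 or 4), and 2, again Hal and Gpt, in the other alternatives. Members called lower numbered 0. The count was 1 (Csad) without background correction, 1 (Csad) with the deposited table, 3 in the separate-channel model (Csad, Prodh2 and Tat) and 2 at an adjusted p under 0.10 (Csad and Prodh2). It was 0 to 1 with 1 array left out. The median of the members was 0.05, turned to -0.085 with median centring (all genes -0.05), and ran from 0.011 to 0.074 with 1 array left out, lowest without array 3.

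Over all genes 270 were called. The count was 442 without background correction, 80 with Agilent's signals, 1 with median centring (lower), 2505 in the separate-channel model, 450 with the deposited table, 1118 at an adjusted p under 0.10, and 1 to 464 with 1 array left out.

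Signs under the alternatives were followed for 24 genes: the members with values given on all arrays by the naming rule, and the called related genes. Of these, 6 turned sign at least once, all near 0 and without a call. The signs of the other members were not followed 1 by 1. With median centring Otc was at -0.15, Nags at -0.10 and Gcsh at -0.033, and with Agilent's signals Aass was at 0.0050. With 1 array left out, Otc ran from -0.082 to 0.085, Nags from -0.063 to 0.097, Aass from -0.16 to 0.13, Cdo1 from -0.20 to 0.0029 and Cps1 from -0.14 to 0.029. Leaving aside Aquantile scaling, which cannot change a ratio, Hal was called in 12 of 16 alternatives (0.57 to 0.77) and Gpt in 10. Median centring also turned the group medians of alanine and its neighbours (-0.13), proline (-0.078), glycine and threonine (-0.0034) and the branched-chain genes (-0.041) below 0. The 4 arrays with 2 residual degrees of freedom limit the precision. Each array pairs 1 knockout with 1 wild-type sample, so the pairing is part of the fit.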
